A study of Mus musculus and Acomys cahirinus with 84 samples.

Results

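The contractile genes of the myofibroblast were followed through cultured skin fibroblasts of 3 rodent populations after gamma irradiation. The 10 genes were taken by symbol, from a list drawn up with earlier results of these data known: Acta2, Actg2, Myh11, Myl9, Tpm1, Tpm2, Cnn1, Tagln, Lmod1 and Des. All 10 were found once among the 56980 genes of the mouse table and once among the 19818 genes of the spiny mouse table. All 10 passed the filter on low counts in every comparison below. Primary skin fibroblasts came from mice labelled C56BL6, from wild mice and from the African spiny mouse, Acomys cahirinus. In the 24 h batch each population had cells given 0, 10 or 20 Gy, and in the 12 d batch it had the same 3 doses and an untreated passaged group. Each of the 21 groups held 4 libraries from 4 numbered animals, which makes 84 libraries. The labels give no age, sex or skin site, and wild mice are given without a strain. A further limit is that all 24 h libraries formed one labelled batch and all 12 d libraries another. Time therefore cannot be told apart from batch, and tests were kept within a time.

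A myofibroblast is a fibroblast that has taken on part of the contractile machinery of smooth muscle, as dermal fibroblasts do in wounds and on stiff culture plastic. Smooth muscle alpha-actin, encoded by Acta2, is built into stress fibres that pull on the matrix through focal adhesions. Transforming growth factor beta (TGF-beta) and mechanical tension raise these genes through serum response factor (SRF) and its actin-sensing partners, the myocardin-related transcription factors. SRF binds a short A- and T-rich element called the CArG box, often close to the start of contractile genes.

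The 250 bases before the start of each gene's canonical GENCODE transcript were searched on both strands. The CArG box was taken as C-C, 6 bases that are A or T, then G-G. Of the 10 contractile genes only Tagln held such a box, against 304 of 21770 mouse promoters (1.4%). A looser search, added after that result was seen, let 1 inner base be C or G. It found boxes in Tagln and Myl9, so in 2 of 10 genes, against 1893 promoters (8.7%). These stretches are shown because they carry the element through which this gene family is best known to be driven. They are 60 bases long, read 5′ to 3′ along the gene from GRCm39, with the box in capitals. The Tagln stretch lies on the minus strand at chr9:45847434-45847493 and the Myl9 stretch on the plus strand at chr2:156616977-156617036.
Tagln: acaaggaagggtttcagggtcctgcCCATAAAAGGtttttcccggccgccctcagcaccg
Myl9: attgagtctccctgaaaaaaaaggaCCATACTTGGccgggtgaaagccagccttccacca
A match is a description of letters and not a measured binding site. It also depends on the start chosen: the counted gene model of Myl9 begins at base 156617340, against 156617084 here. Tpm1, Tpm2 and Actg2, in which no box was found, also have another counted start. For Tpm2 it is base 43523765 on the minus strand, against a searched window from base 43524562 to 43524811. The lack of a box holds for the searched window only. No sequence of the spiny mouse was used here.

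Values are CPM, counts of a gene per M counts assigned to genes. Total counts ran from 26.65 to 39.82 M per library in C56BL6. Wild libraries ran from 17.42 to 35.98 M and spiny mouse libraries from 25.55 to 52.86 M. A count of 3 in a library corresponds to 0.057 to 0.172 CPM, which every value of the 10 genes exceeds. The 10 genes together took 0.41 to 1.309% of all counts in C56BL6, 0.684 to 3.963% in wild mice and 0.634 to 1.537% in A. cahirinus. Fold changes are log2 values ± SE from edgeR, scaled between libraries by the trimmed mean of M values, so they need not equal the ratio of CPM means. A gene passed the test at an adjusted p under 0.05 over all genes tested. By the labels' animal codes the same 4 animals gave every group of a population, although wild animal 1 did not match across the times (below). Each comparison was also fitted with the animal as a block, called the blocked fit below. Wherever genes are counted at an adjusted edgeR p, the background is the share of all tested genes that passed the same rule. Counts by an unadjusted p or by DESeq2 have their own numbers over all genes only where these are given.

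Several features of the libraries touch the values of these genes. In mouse annotation 67.9% of the exonic bases of Tagln overlap Pcsk7 and Gm48529 on the other strand, and 85.7% overlap Pcsk7 in the spiny mouse. Counting ignored strand and left reads in overlapping genes unassigned, so the level of Tagln, the calponin-like protein transgelin, is uncertain throughout. The actin genes are close copies of each other, and reads mapped to more than 1 place were left out, which can lower Acta2 and Actg2. The 10 Gy library of wild animal 1 at 24 h stood apart: 37.13% of genes lay more than 2-fold from the other libraries of that animal. Its short transcripts were high and its long ones low, with median log2 differences of 1.17 below 2 kb and -0.92 above 6 kb. Wild animal 1 at 12 d differed from animal 1 at 24 h in 32 genes and from animal 4 at either time in 0, counting genes at 1 CPM or more in every library of an animal and under 0.05 CPM in every library of the other. How many animals the wild 12 d libraries hold is therefore uncertain. In all other animals the same number gave 0 such genes across the times. A count of 0 does not show that 2 sets share an animal, since it was also found for different numbers, in 3 of 24 pairs in C56BL6 and 16 of 24 in A. cahirinus. In wild mice the 2 of 24 such pairs were those of animal 1 at 12 d with animal 4. All other pairs of different wild numbers differed in 9 to 94 genes. In the 12 d libraries of C56BL6 animal 1, the keratinocyte genes Krt14 and Krt5 reached 415 and 409 CPM at 0 Gy, against at most 1.34 CPM in the other animals.

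Cell type markers bear on these genes too, since smooth and skeletal muscle cells express several of them. Fibroblast markers summed to 8969 to 46074 CPM in C56BL6, 8172 to 66169 in wild mice and 16702 to 32906 in A. cahirinus. Single markers differed more, with medians in that order of 18.8, 8.70 and 636 CPM for Dcn and 0.478, 0.414 and 189 CPM for Lum. Pdgfra went the other way, at 183, 490 and 21.7 CPM. Markers of pericytes and vascular smooth muscle summed to 87 to 417, 45 to 477 and 320 to 594 CPM in the same order, and Pln was near 0 in all populations. Medians in that order were 1.09, 1.27 and 60.8 CPM for Myocd and 53.2, 22.7 and 319 CPM for Cspg4. Mcam went the other way, at 104, 48.4 and 2.58 CPM. Skeletal muscle markers stood out in the spiny mouse, where 10 genes summed to 1141 to 12721 CPM. Its libraries had medians of 1396 CPM for Myh3, 1207 for Acta1, 458 for Myog and 146 for Myod1, while Mylpf had a median of 0.112 CPM and Ckm one of 0.505 CPM with a highest value of 4.50 CPM. In mice the sum was 7.78 to 280 CPM in C56BL6 and 4.52 to 778 CPM in wild mice, with 7 of the 10 markers at or near 0. The wild maximum belonged to the library that stood apart, and the same animal at 24 h held 437 CPM at 0 Gy and 754 CPM at 20 Gy. The part of muscle cells in the spiny mouse values was not tested. In bulk RNA, fewer cells of a type and less RNA per cell cannot be told apart.

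Levels of different genes were compared per length, as CPM divided by exon length in kilobases (RPKM). Acta2 was the highest of the 10 in each of the 6 untreated groups. In C56BL6 it stood at 3084 ± 151 RPKM (SD, n = 4) at 24 h and 1312 ± 679 RPKM (SD, n = 4) at 12 d. In A. cahirinus it stood at 1327 ± 199 and 1503 ± 232 RPKM (SD, n = 4 each), and in wild mice at 2856 ± 1787 and 1800 ± 459 RPKM (SD, n = 4 each). Only in the wild 24 h group did its values overlap those of the next gene.

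The second place differed between mouse and spiny mouse. It was taken in both mouse populations by Myl9, the regulatory light chain through which myosin is switched on, with 662 ± 70 RPKM (SD, n = 4) in C56BL6 at 24 h and 452 ± 203 RPKM at 12 d. At 24 h Myl9 overlapped Actg2 in both mouse populations, with wild means of 852.2 and 851.6 RPKM. In A. cahirinus it was taken by Tpm2, the tropomyosin that lies along actin filaments, with 427 ± 94 RPKM (SD, n = 4) at 24 h and 550 ± 101.3 RPKM at 12 d. At 24 h Tpm2 overlapped Tpm1 there, and at 12 d it overlapped no neighbour in the order. Des, the intermediate filament protein desmin, had rank 3 at 12 d and rank 4 at 24 h in the spiny mouse. In C56BL6 Des was last of the 10 at either time, at 4.95 ± 4.86 and 2.26 ± 2.60 RPKM (SD, n = 4 each). The end of the order also differed: Lmod1, the actin-nucleating leiomodin, had a median over 28 libraries of 38.3 RPKM in C56BL6, 37.6 in wild mice and 2.25 in A. cahirinus. For Actg2, the smooth muscle gamma-actin, these medians were 380, 419 and 29.9 RPKM. No test was made of levels between mouse and spiny mouse, because the tables rest on different gene models.

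**Figure D1:**
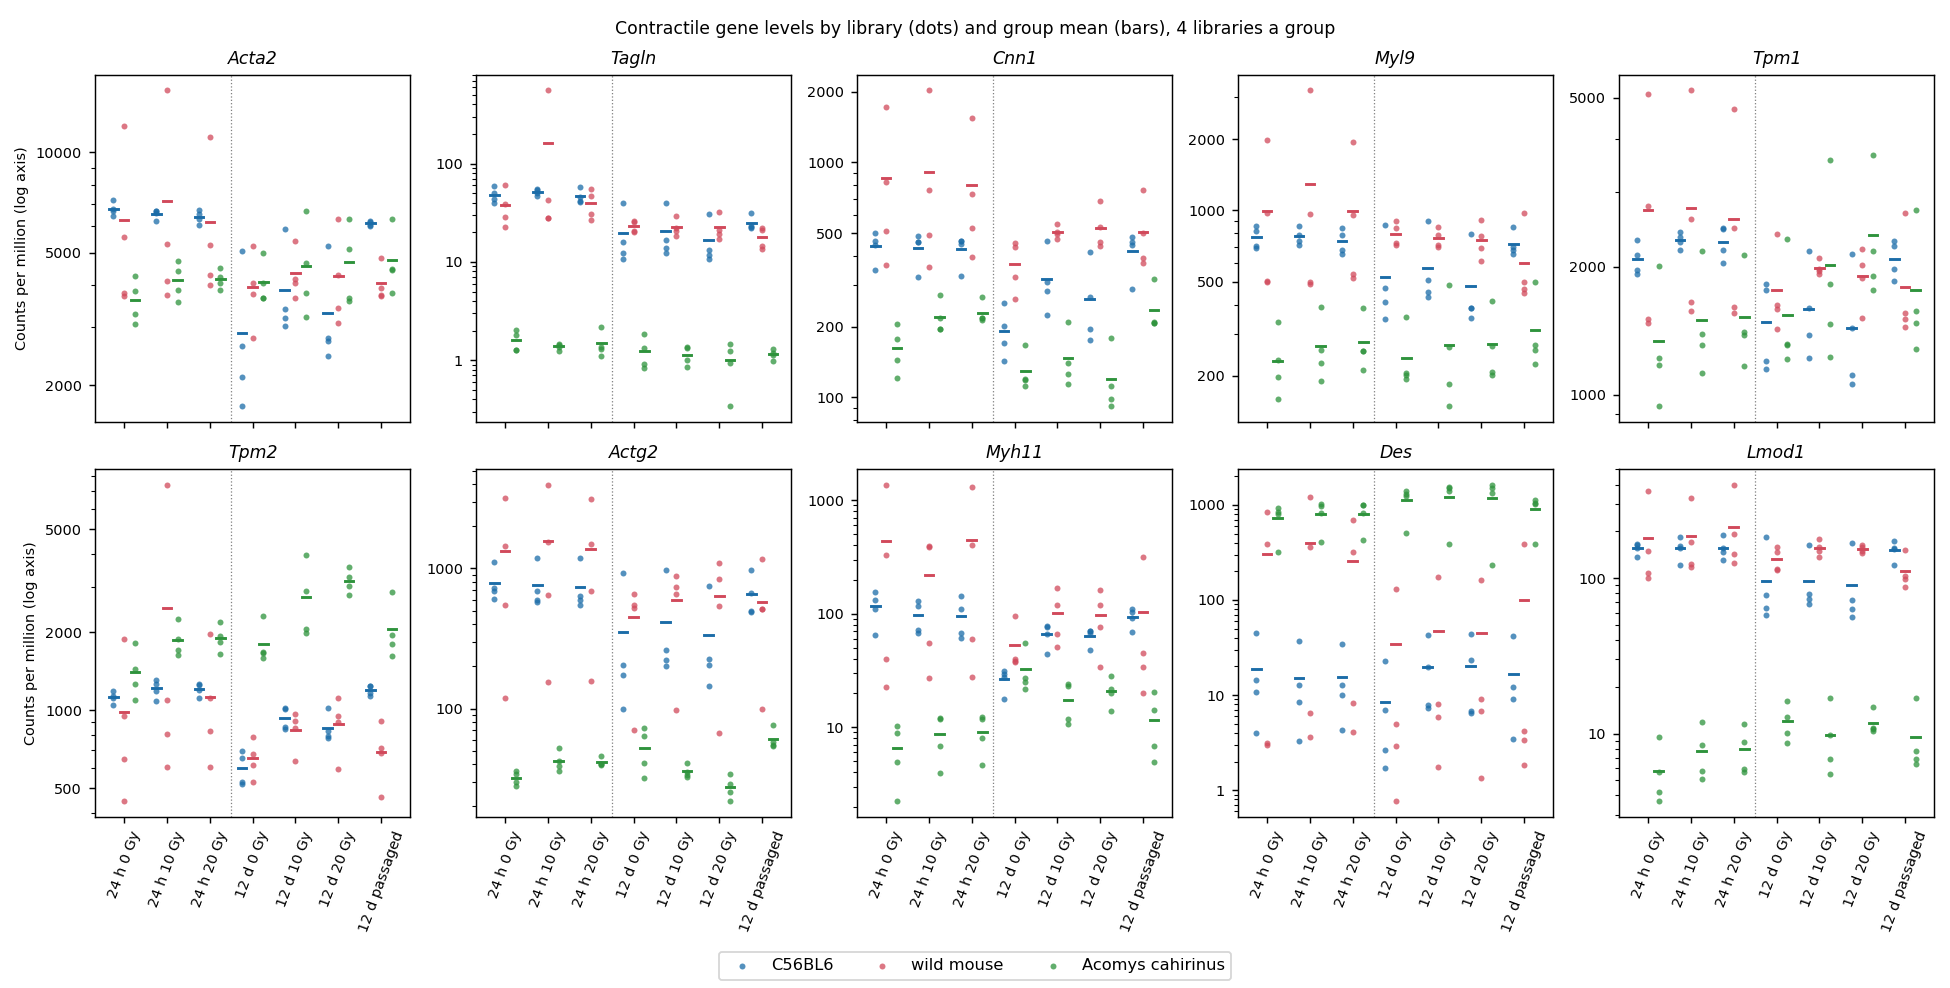
CPM (log axis) of each of the 10 contractile genes in the 21 groups, with a dot for each library and a bar for the mean of 4 libraries. Des lies higher in most spiny mouse libraries than in most mouse libraries, while Lmod1, Actg2 and Tagln lie lower there. The lone wild dot at 557 CPM of Tagln is the 24 h, 10 Gy library of animal 1.

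Animals of a population differed widely. Des was highest in animal 3 in every C56BL6 group, for example 14.3, 4.02, 45.2 and 10.9 CPM in animals 1 to 4 at 24 h and 0 Gy. In untreated wild cells at 24 h it was 835, 2.97, 385 and 3.17 CPM, and at 12 d 2.90, 0.772, 131 and 5.01 CPM. The 24 h set shows animals 1 and 3 high and animals 2 and 4 low, and at 12 d only animal 3 was high. Averaged over the groups of a time, the highest wild animal exceeded the lowest by 251-fold at 24 h and 145-fold at 12 d for Des. At 24 h the same ratio was 34.4-fold for Myh11, the smooth muscle myosin heavy chain, and 23.9-fold for Actg2. In the spiny mouse, animal 2 had the lowest Des and the highest Acta2, Cnn1, Myl9, Tpm1, Tpm2 and Lmod1.

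The first question was how the contractile genes stood 24 h after irradiation. In A. cahirinus all genes but Tagln were higher in irradiated cells of all 4 animals, by a small step. In the mouse populations at most 1 gene passed at a dose in either fit. The 10 and 20 Gy comparisons share the 0 Gy libraries throughout, so their values are given side by side and not as repeats of each other.

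Cnn1 encodes calponin, an actin-binding brake on myosin. In A. cahirinus at 24 h it was 177, 205, 144 and 121 CPM at 0 Gy, 218, 272, 196 and 195 CPM at 10 Gy, and 219, 269, 213 and 218 CPM at 20 Gy. All 4 irradiated libraries at 20 Gy lay above all untreated ones, while at 10 Gy the groups overlapped. Tpm2 was 1446, 1816, 1266 and 1098 CPM at 0 Gy and 1930, 2201, 1836 and 1651 CPM at 20 Gy, with overlap between the groups but a rise in each animal. Acta2 was 3837, 4251, 3282 and 3057 CPM at 0 Gy and 4221, 4497, 4061 and 3861 CPM at 20 Gy, again higher in each animal. Actg2 was 34.2, 35.8, 28.2 and 29.7 CPM at 0 Gy and 40.1, 46.2, 40.1 and 39.5 CPM at 20 Gy, without overlap.

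Without the block none of the 10 genes passed in A. cahirinus at 24 h (background 3.59% at 20 Gy and 3.73% at 10 Gy). An unadjusted edgeR p under 0.05 was found for 3 at each dose, Tpm2, Actg2 and Cnn1. Over all genes it was found for 2281 of 13146 at 20 Gy and 2136 of 13083 at 10 Gy. DESeq2 called 1 of the 10 at 20 Gy, Actg2, and 0 at 10 Gy. At 20 Gy it called 357 genes higher and 749 lower over all. In the blocked fit 9 of 10 rose at 20 Gy, against a background of 13.3% of genes higher, and 9 of 10 rose at 10 Gy, against 15.2%. The changes at 20 Gy were 0.56 ± 0.08 for Cnn1 (adjusted p = 0.0010), 0.48 ± 0.06 for Tpm2 (0.00031) and 0.24 ± 0.06 for Acta2 (0.012) on the log2 scale. Myh11 rose by 0.59 ± 0.13, Lmod1 by 0.52 ± 0.10, Actg2 by 0.41 ± 0.07 and Myl9 by 0.31 ± 0.06. Tpm1 at 0.24 ± 0.05 and Des at 0.23 ± 0.07 were the smallest of the 9. The median of the 10 genes was 0.36 in the blocked fit against 0.03 over all genes. The count rests in part on animals 3 and 4: without either it fell to 4 at 20 Gy, and Cnn1, Tpm2, Actg2 and Lmod1 passed whichever animal was left out. At 10 Gy it fell to 6 without animal 3. The summed skeletal muscle markers stood at 1141 to 3284 CPM untreated and 1451 to 3913 CPM after 20 Gy, and were higher after 20 Gy in 3 of 4 animals. At 10 Gy they stood at 1430 to 3592 CPM and were higher in 4 of 4 animals. In the blocked fit the skeletal muscle actin Acta1 rose by 0.28 ± 0.07 at 10 Gy (adjusted p = 0.0062) and 0.29 ± 0.08 at 20 Gy (0.027). The embryonic myosin Myh3 rose by 0.21 ± 0.06 (0.020) and 0.24 ± 0.06 (0.017). Tnnt3 rose at 20 Gy alone, by 0.20 ± 0.06 (0.045). Myf5 went the other way, at -0.66 ± 0.09 (0.00022) and -0.85 ± 0.07 (3.1e-05). Myod1, Myog and Pax7 did not pass at either dose. The part of muscle cells in these changes was not tested.

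In C56BL6 at 24 h, Acta2 was 6652, 7222, 6436 and 6782 CPM at 0 Gy and 6702, 6537, 6057 and 6331 CPM at 20 Gy, with overlapping groups. None of the 10 genes passed at 20 Gy (background 0.0895%) or at 10 Gy (0.007%) by edgeR, none had an unadjusted p under 0.05 at either dose, and DESeq2 called 0. In the blocked fit Myh11 fell by 0.33 ± 0.08 at 20 Gy (adjusted p = 0.012; background 9.45% lower), from 65.6, 110, 133 and 155 CPM at 0 Gy, and this call was lost without animal 3. At 10 Gy Des fell by 0.29 ± 0.07 (adjusted p = 0.028; background 6.11% lower), a call lost without animal 2, 3 or 4. Without animal 1 the blocked counts were 3 and 5.

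In wild mice at 24 h none of the 10 genes passed at 20 Gy or at 10 Gy, where the background was 0% at each dose, with 0 genes at an unadjusted edgeR p under 0.05 and 0 calls by DESeq2. Acta2 was 12018, 3798, 5566 and 3707 CPM at 0 Gy and 11113, 4292, 5274 and 4005 CPM at 20 Gy. In the blocked fit Lmod1 rose by 0.27 ± 0.08 at 20 Gy (adjusted p = 0.041; background 7.36% higher), with 364, 100, 149 and 108 CPM at 0 Gy and 398, 142, 192 and 126 CPM at 20 Gy. That call was lost without animal 2, 3 or 4, and without animal 1 the blocked count was 3. The outlying 10 Gy library held 7414 CPM of Tpm2, 557 CPM of Tagln and 388 CPM of Myh11. The other 10 Gy libraries held at most 1099.9 CPM of Tpm2 and 42.6 CPM of Tagln.

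At 12 d the populations parted over Myh11. It was higher after irradiation in C56BL6 cells and lower in spiny mouse cells, while Tpm2 was higher in either.

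In C56BL6 at 12 d, Myh11 was 17.7, 27.6, 31.6 and 29.7 CPM at 0 Gy, 43.8, 66.7, 77.9 and 76.1 CPM at 10 Gy, and 69.8, 47.5, 70.5 and 67 CPM at 20 Gy. Every irradiated library lay above every untreated one. The change was 1.14 ± 0.20 at 20 Gy (adjusted p = 0.0057) and 1.19 ± 0.23 at 10 Gy (adjusted p = 0.011), higher in 4 of 4 animals at each dose. At 20 Gy Myh11 was the only one of the 10 to pass (background 13% higher), and it passed whichever animal was left out. At 10 Gy Tpm2 passed as well, so 2 of 10 rose (background 10.3% higher). Tpm2 was 696, 652, 521 and 529 CPM at 0 Gy and 1012, 850, 860 and 1024 CPM at 10 Gy, without overlap, a change of 0.52 ± 0.13 (adjusted p = 0.030). Without animal 2, 3 or 4, neither gene passed at 10 Gy in the unblocked fit.

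The blocked fit called 4 of 10 in C56BL6 at 20 Gy (background 47.5% in either direction) and 4 of 10 at 10 Gy (19.2% higher). Des was added at each dose, with a change of 1.34 ± 0.17 at 20 Gy (adjusted p = 0.0014) and 1.34 ± 0.18 at 10 Gy (0.0012). It was 6.91, 1.70, 22.7 and 2.67 CPM at 0 Gy and 23.6, 6.43, 44.1 and 6.86 CPM at 20 Gy, so the groups overlapped while each animal rose. At 20 Gy Tpm2 rose by 0.40 ± 0.08 (adjusted p = 0.0095), a call lost without animal 3 or 4, and Myl9 fell by 0.24 ± 0.07 (0.032), a call lost without animal 2, 3 or 4. At 10 Gy Cnn1 rose by 0.60 ± 0.14 (adjusted p = 0.013), a call lost without animal 4. Acta2 gave no call in either fit: it was 5049, 2632, 2113 and 1732 CPM at 0 Gy and 5242, 2767, 2720 and 2444 CPM at 20 Gy, with animal 1, the one with keratins, far above the rest. Between 20 and 10 Gy none of the 10 passed (background 0%), with 0 at an unadjusted edgeR p under 0.05 and 0 by DESeq2.

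In A. cahirinus at 12 d, Tpm2 was 1661, 2307, 1591 and 1681 CPM at 0 Gy, 2900, 3988, 2067 and 1988 CPM at 10 Gy, and 3256, 3564, 2789 and 3006 CPM at 20 Gy. All libraries at 20 Gy lay above all untreated ones, and the change was 0.80 ± 0.17 (adjusted p = 0.0088). Actg2 went the other way, with 64, 31.9, 41.1 and 72.2 CPM at 0 Gy and 33.8, 25.4, 21.9 and 29.1 CPM at 20 Gy. It fell by 0.92 ± 0.27 (adjusted p = 0.030) and was lower in 4 of 4 animals, though the groups overlapped. These were the 2 of 10 that passed at 20 Gy (background 31.8% in either direction), a share near the background, and each call was lost without animal 1, 3 or 4.

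With the block 4 of 10 passed in A. cahirinus at 20 Gy (background 49.2%). Tpm1, the broader tropomyosin, rose by 0.61 ± 0.11 (adjusted p = 0.0043) and Myh11 fell by 0.57 ± 0.15 (0.017). Myh11 was 55, 27.4, 21.8 and 25 CPM at 0 Gy, 24.3, 23.3, 11.7 and 10.8 CPM at 10 Gy, and 28.4, 21.7, 20.1 and 14 CPM at 20 Gy. It was lower in 4 of 4 animals at each dose, and at 20 Gy its call was lost without animal 1 or 4. At 10 Gy Actg2 was the 1 gene at an unadjusted edgeR p under 0.05, against 2880 of 13215 over all genes, and DESeq2 called 0. None passed without the block (background 2.87%). With it 2 of 10 passed (background 27.5%): Tpm2 rose by 0.56 ± 0.12 (adjusted p = 0.015) and Myh11 fell by 0.88 ± 0.17 (0.0099), and neither passed without animal 1. Between 20 and 10 Gy Actg2 alone had an unadjusted edgeR p under 0.05, against 1917 of 13564 over all genes, and DESeq2 called 0. None passed without the block (background 0.457%). With it Cnn1 fell by 0.31 ± 0.08 (adjusted p = 0.034) and Actg2 fell by 0.38 ± 0.11 (0.039; background 9.62% lower), and neither passed without animal 1, 3 or 4. Over these groups the skeletal muscle markers summed to 7689, 3496, 7276 and 6857 CPM at 0 Gy and 11991, 2052, 12127 and 12721 CPM at 20 Gy. The sum was higher at 20 Gy in animals 1, 3 and 4 and lower in animal 2. Single markers went both ways in the unblocked fit. Myf5 was lower, at -1.61 ± 0.51 (adjusted p = 0.043), as was Pax7, at -1.54 ± 0.46 (0.034). The rise of Acta1, 0.84 ± 0.46, did not pass (0.19). The part of muscle cells in the changes was not tested.

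In wild mice at 12 d none of the 10 passed at 20 Gy (background 0.0694%), at 10 Gy (0.264%) or between the doses (0%), with 0 at an unadjusted edgeR p under 0.05 and 0 by DESeq2 each time. Myh11 was 39.6, 38.2, 95.1 and 37.4 CPM at 0 Gy and 119, 66.2, 169 and 50.7 CPM at 10 Gy, higher in each animal with overlap between the groups. In the blocked fit it rose by 0.76 ± 0.19 (adjusted p = 0.046), and Des rose by 0.62 ± 0.12 (0.018), so 2 of 10 passed at 10 Gy (background 5.96% higher). At 20 Gy Des rose by 0.69 ± 0.14 (adjusted p = 0.022; background 7.66% higher). The blocked counts were 0 at each dose without animal 1, 3 or 4, and the call of Myh11 was lost whichever animal was left out. Animal 1 was the one whose 12 d libraries could not be told from those of animal 4.

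**Figure D2:**
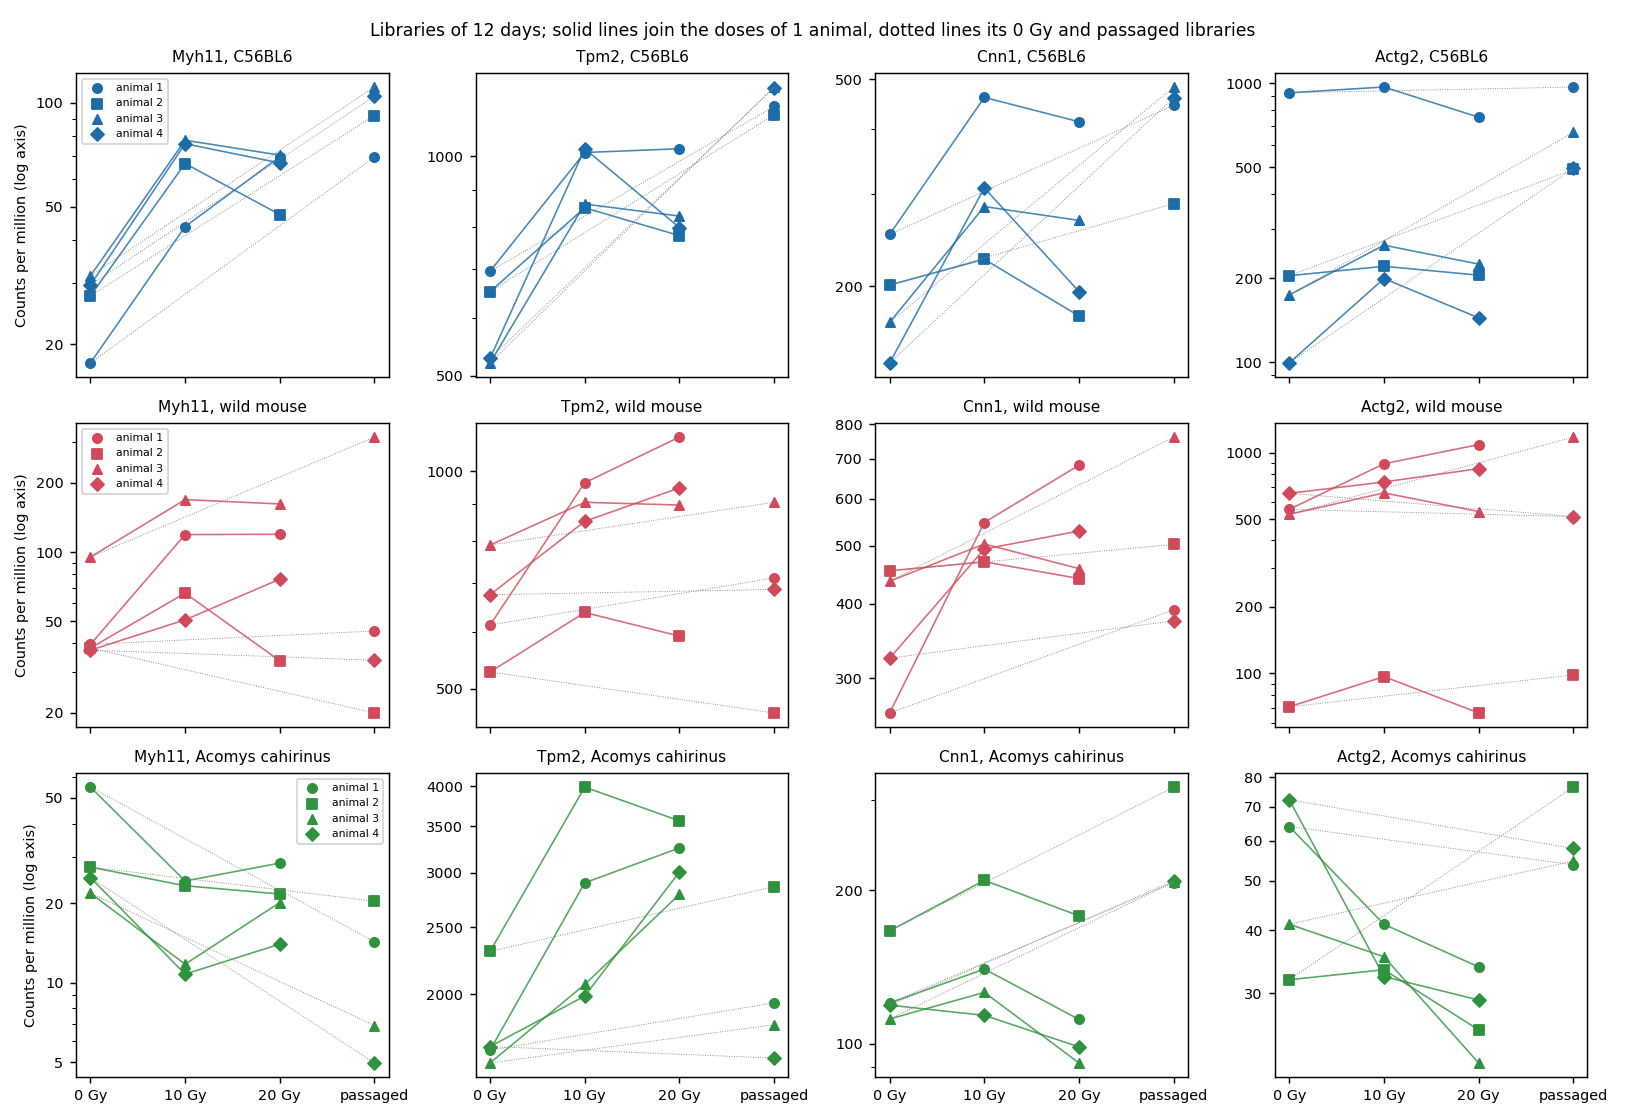
CPM (log axis) of Myh11, Tpm2, Cnn1 and Actg2 in each 12 d library, with a symbol for each animal. Solid lines join the 3 doses of an animal, and dotted lines join its 0 Gy and passaged libraries. Myh11 rises with irradiation in all 4 C56BL6 animals and falls in all 4 spiny mouse animals.

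The next comparison sets untreated cells labelled passaged against untreated cells of the same batch at 12 d. In C56BL6 4 of the 10 genes rose in passaged cells without the block and 9 with it. The spiny mouse showed a mixed picture and the wild mouse no call.

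In C56BL6, Acta2 was 6245, 6027, 6047 and 6191 CPM in passaged cells against 5049, 2632, 2113 and 1732 CPM in the 0 Gy group, without overlap. Myh11 was 69.7, 91.8, 111 and 104 CPM in passaged cells, against at most 31.6 CPM at 0 Gy. Tpm2 was 1171, 1140, 1245 and 1242 CPM, and Cnn1 was 445, 288, 483 and 460 CPM, each above all libraries of the 0 Gy group. These 4 of 10 passed (background 24.2% higher). The changes were 1.82 ± 0.21 for Myh11 (adjusted p = 0.00054), 0.99 ± 0.12 for Tpm2 (0.00063), 1.12 ± 0.21 for Cnn1 (0.0035) and 1.08 ± 0.33 for Acta2 (0.0255). The first 3 passed whichever animal was left out, and Acta2 was lost without animal 2, 3 or 4. The median of the 10 genes was 0.91, against -0.02 over all genes.

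With the block 9 of 10 rose, all but Tagln (background 29.3% higher). Des rose by 1.10 ± 0.19 (adjusted p = 0.0028), Actg2 by 1.40 ± 0.37 (0.017), Lmod1 by 0.81 ± 0.24 (0.026), Myl9 by 0.54 ± 0.17 (0.034) and Tpm1 by 0.51 ± 0.12 (0.012). The blocked count was 10 without animal 1 and 5 without animal 3. The calls of Actg2, Lmod1 and Myl9 were each lost without animal 2, 3 or 4, and that of Tpm1 without animal 3. At 0 Gy animal 1 had the highest Acta2, Tagln, Cnn1, Myl9, Tpm2, Actg2 and Lmod1. Its Actg2 was 923 CPM against 204, 174 and 99.7 CPM in animals 2 to 4. Animal 1 also had the lowest Myh11, 17.7 CPM. Its Krt14 fell from 415 CPM in the 0 Gy library to 252 CPM in the passaged one, and its part in the counts is given by the values without it. Acta1, also an actin, rose in the unblocked fit by 4.26 ± 0.26 (adjusted p = 0.00011), from 6.06 ± 0.98 to 117 ± 35.5 CPM (SD, n = 4 each). With it the summed skeletal muscle markers stood at 92.3, 85.3, 149 and 150 CPM in passaged cells against 10.1, 8.42, 10.4 and 7.78 CPM, without overlap. Most of the sum was Acta1 itself, and Myod1, Myog, Myf5, Pax7 and Ckm had medians of 0 CPM in C56BL6. Another marker, the troponin gene Tnnt3, fell by 1.08 (adjusted p = 0.016), and the part of muscle cells was not tested.

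In A. cahirinus only Cnn1 passed between passaged and 0 Gy cells (background 12.1% higher). It was 207, 319, 208 and 209 CPM in passaged cells against 120, 166, 112 and 119 CPM, without overlap, a change of 0.84 ± 0.21 (adjusted p = 0.020). The call was lost without animal 1, 3 or 4, and without animal 2 the count was 5. With the block 5 of 10 passed (background 49.5% in either direction). Cnn1 rose by 0.83 ± 0.05 (adjusted p = 1.5e-05) and Myl9 by 0.34 ± 0.07 (0.0039). Myh11 fell by 1.57 ± 0.27 (0.0018), Des by 0.34 ± 0.06 (0.0019) and Lmod1 by 0.43 ± 0.15 (0.046), the last a call lost without animal 1, 3 or 4. Myh11 was 14.3, 20.3, 6.88 and 4.97 CPM in passaged cells, all below the 21.8 to 55 CPM of the 0 Gy group. The summed skeletal muscle markers were also lower in passaged cells, at 4692, 1866, 4400 and 3597 CPM, in 4 of 4 animals. Among them Myod1 was higher, by 0.42 ± 0.09 in the blocked fit (adjusted p = 0.0051). In wild mice none of the 10 passed (background 10.7%), with 0 at an unadjusted edgeR p under 0.05 and 0 by DESeq2.

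Cells given 20 Gy were also set against the passaged untreated cells of the same batch. In C56BL6 6 of 10 were lower after 20 Gy (background 21.2% lower) and in the blocked fit 9 of 10 were, all but Des (27.8% lower). Acta2 fell by 1.03 ± 0.24 (adjusted p = 0.0093), Cnn1 by 0.81 ± 0.28 (0.045), Myl9 by 0.72 ± 0.25 (0.048), Myh11 by 0.70 ± 0.18 (0.013), Tpm1 by 0.68 ± 0.22 (0.036) and Tpm2 by 0.62 ± 0.10 (0.0020). The same passaged libraries serve here and in the comparison with 0 Gy, so these changes are not a separate measurement of them. Without animal 2, 3 or 4 only Tpm2 passed in the unblocked fit, and without animal 1 there were 9. The blocked count was 9 whichever animal was left out. Here Acta1 fell by 3.72 ± 0.41 (adjusted p = 0.00030).

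In A. cahirinus 3 of 10 passed at 20 Gy against passaged cells (background 42.5% in either direction). Actg2 was 33.8, 25.4, 21.9 and 29.1 CPM against 53.8, 76.5, 54.7 and 57.9 CPM, without overlap, and fell by 1.13 ± 0.18 (adjusted p = 0.0016), whichever animal was left out. Cnn1 was 112, 178, 91.7 and 98.6 CPM, below all passaged libraries, and fell by 0.96 ± 0.26 (adjusted p = 0.0195). Tpm2 rose by 0.62 ± 0.21 (adjusted p = 0.040). The last 2 calls were lost without animal 1, 3 or 4, and without animal 2 the count was 7. In the blocked fit 5 of 10 passed, a share below the background of 56%, with Tpm1 higher by 0.44 ± 0.10 (adjusted p = 0.0084) and Myh11 higher by 1.01 ± 0.23 (0.0081). The call of Tpm1 was lost without animal 1. The summed skeletal muscle markers were higher at 20 Gy than in passaged cells in 4 of 4 animals. In the unblocked fit Acta1 was higher by 1.75 ± 0.44 (adjusted p = 0.014) and Tnnt3 by 1.95 ± 0.65 (0.041). In the blocked fit Pax7 was lower, at -1.01 ± 0.19 (0.0031), as was Myf5, at -0.74 ± 0.14 (0.0040). The part of muscle cells was not tested. In wild mice none passed without the block (background 10.5%), with 0 at an unadjusted edgeR p under 0.05 and 0 by DESeq2. With it Lmod1 was higher after 20 Gy by 0.48 ± 0.14 (adjusted p = 0.029; background 19.7% higher), a call lost without animal 1, 2 or 4, while without animal 3 the count was 5.

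**Figure D3:**
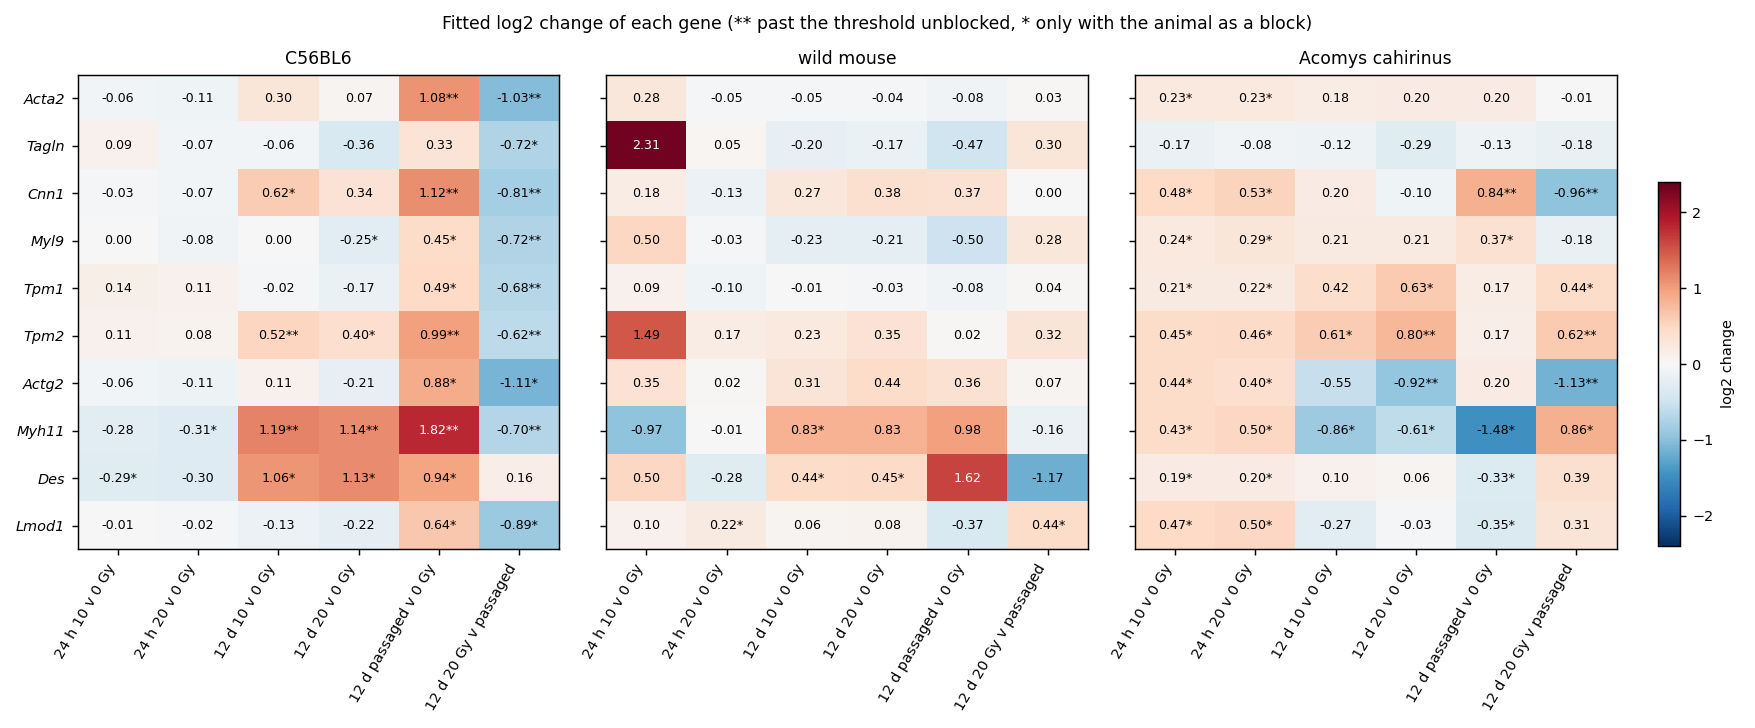
Unblocked log2 change of each gene in 6 comparisons within each population, red for higher and blue for lower in the first-named group. A double star marks genes past the threshold without the block and a single star those past it only with the animal as a block. The C56BL6 columns for passaged cells hold the most double stars, 4 and 6, and the wild mouse panel holds none.

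Untreated wild and C56BL6 cells were compared directly, since they share a gene table. None of the 10 genes differed at 24 h (background 5.7%) or at 12 d (2.93%). By edgeR Des alone had an unadjusted p under 0.05 at 24 h, and Myl9, Cnn1 and Myh11 did at 12 d. Over all genes 3175 of 14317 did at 24 h and 2174 of 14238 at 12 d. DESeq2 called 0 at 24 h and 2 at 12 d, Cnn1 and Myh11. Of the 14238 genes at 12 d it called 560 higher and 521 lower. At 12 d Cnn1 was 262, 454, 436 and 324 CPM in wild cells and 251, 201, 170 and 142 CPM in C56BL6 cells, a difference of 1.09 ± 0.27 (adjusted p = 0.083). At 24 h the Des difference was 4.17 ± 1.76 (adjusted p = 0.21). No block applies to these comparisons, because the animals differ.

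Whether populations differed in their changes was tested as an interaction over genes named in each table. The spiny mouse was first set against C56BL6. At 24 h and 20 Gy Acta2 and Cnn1 had an unadjusted edgeR p under 0.05, against 1462 of 13589 over all genes, and DESeq2 called 0. None of the 10 passed without the block (background 2.09%). With it 8 of 10 were higher in A. cahirinus (background 8.8% higher), for example Myh11 by 0.89 ± 0.16 (adjusted p = 0.0010), Cnn1 by 0.62 ± 0.10 (0.00035) and Acta2 by 0.34 ± 0.07 (0.0041). Tpm1 and Tagln did not pass.

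At 12 d and 20 Gy, Myh11 was the 1 gene whose change differed without the block, lower in A. cahirinus by 1.75 ± 0.41 (adjusted p = 0.0105; background 10.7% lower). This call was lost without animal 3 or 4. With the block 6 of 10 passed (background 38%), Tpm1, Myl9 and Tpm2 towards the spiny mouse and Myh11, Des and Actg2 towards C56BL6. For passaging, the change of Myh11 was lower in A. cahirinus by 3.30 ± 0.57 (adjusted p = 0.0012) and that of Tpm2 by 0.83 ± 0.26 (0.031), so 2 of 10 passed (background 14.3% lower). Myh11 passed whichever animal was left out and Tpm2 was lost without animal 1, 3 or 4. With the block 5 of 10 were lower in the spiny mouse (background 23.7% lower), with Acta2, Des and Lmod1 added.

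The spiny mouse was then set against wild mice. The unblocked tests called 0 of 10 at 24 h (background 0%), at 12 d (3.35%) and for passaging (3.46%). By edgeR no gene had an unadjusted p under 0.05 in the first and Myh11 alone did in each of the others, and DESeq2 called 0 in each. Over all genes 701 of 13584, 2703 of 13888 and 2782 of 13514 had such a p. With the block Cnn1 was higher in A. cahirinus by 0.62 ± 0.12 at 24 h (adjusted p = 0.0061; background 2.92% higher). At 12 d Actg2 and Myh11 were lower, by 1.07 ± 0.29 and 1.26 ± 0.38 (adjusted p = 0.024 and 0.036; background 13.1% lower). For passaging Myl9 was higher by 0.92 ± 0.29 (adjusted p = 0.048; background 11.5% higher).

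Wild mice against C56BL6 gave 0 of 10 at 24 h (background 0%), at 12 d (0%) and for passaging (0.0131%) without the block. By edgeR 0, 0 and 2 genes had an unadjusted p under 0.05, the last Tpm2 and Acta2, and DESeq2 called 0, 0 and 1, Tpm2. For passaging 1315 of 15316 over all genes had such a p, and DESeq2 called 72 higher and 60 lower. With the block Tpm2 rose less on passaging in wild mice by 1.02 ± 0.21 (adjusted p = 0.035; background 1.52% lower).

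The pathway around these genes was read from lists of 12 regulators of SRF and myosin activity, 16 genes of TGF-beta signalling and 23 other actin and adhesion genes. At 24 h none of these 3 lists had a call without the block in any population. In passaged C56BL6 cells 14 of 22 tested actin and adhesion genes rose and 0 fell, among them Ccn2, a secreted matrix-associated protein, by 1.62 ± 0.42 and the actin cross-linker Actn4 by 1.24. Of all genes tested 24.2% rose and 25.5% fell there. Of the 12 regulators 5 rose, including the SRF partner Mrtfa by 0.58. Of the TGF-beta genes 2 rose and 3 fell, with Smad7, an inhibitor of the pathway, up by 1.75 and the receptor Tgfbr2 down, at -2.20. At 20 Gy against passaged C56BL6 cells 14 of 22 actin genes and 5 of 12 regulators fell, Srf at -0.94 and Actb at -1.22, against 21.2% of all genes. All 6 proliferation genes moved the same way as the contractile genes in these 2 comparisons, with Mki67 at 3.12 and -4.71, and their part was not tested.

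At 12 d and 20 Gy in C56BL6, 4 of 22 actin genes rose, including caldesmon, the actin binder encoded by Cald1, by 0.73, and 2 of 12 regulators rose, shares near the 13% of all genes. Smad7 and Smad3 rose, and Nox4 and Tgfbr2 fell. In A. cahirinus at 20 Gy 3 of 23 actin genes fell, Csrp1, Smtn and Flna, at -0.74, -0.72 and -0.51, against 18.1% of all genes lower. Of the regulators 3 rose, among them Fhl2 by 1.004 and Myocd by 0.44, and 1 fell, Srf at -0.49, against 13.8% of all genes higher. In passaged spiny mouse cells 12 of 23 actin genes rose (12.1% of all genes), and at 20 Gy against passaged cells 13 fell (23% of all genes) and 1, Lmod2, rose. In wild mice these 3 lists gave 4 calls in all: Fhl2 lower and Smad7 higher in passaged cells, and Synpo2 higher and Bambi lower at 20 Gy against passaged cells. Of all genes tested there, 5.51% were higher and 5.2% lower in passaged cells. At 20 Gy against passaged cells the shares were 4.39% higher and 6.1% lower.

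Within a population the genes largely varied together. Each library's log level was taken as its deviation from its group mean, over 28 libraries and 45 pairs of genes. Libraries share animals, and these correlations are a description. The median pairwise correlation was 0.61 in C56BL6, 0.80 in wild mice and 0.56 in A. cahirinus. Myl9, Acta2 and Lmod1 followed the others most closely in C56BL6, with median correlations of 0.85, 0.81 and 0.85, while Myh11 stood against them at -0.37. In the spiny mouse the correlations of Des with the 9 others were all negative, from -0.95 for Cnn1 to -0.46 for Myh11 and -0.04 for Actg2.

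**Figure D4:**
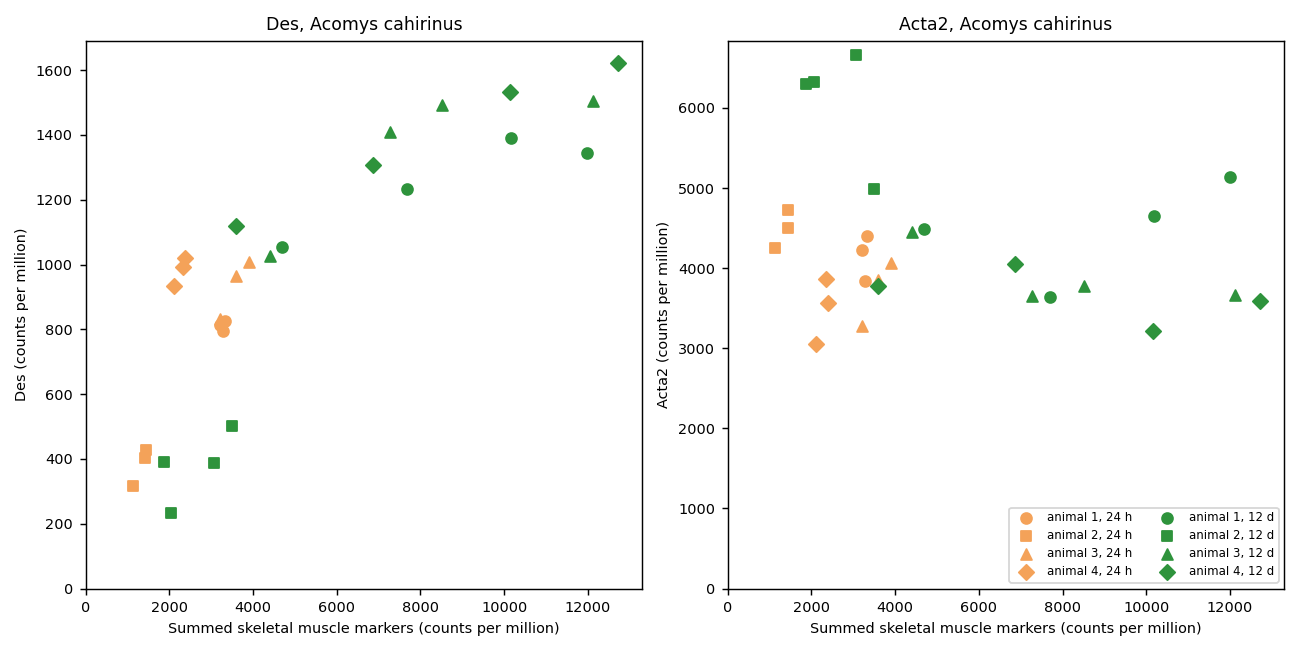
CPM of Des (left) and Acta2 (right) against the summed skeletal muscle markers in the 28 spiny mouse libraries, by animal and time. Animal 2 has the lowest Des, 232 to 502 CPM, among libraries of its time, and the lowest marker sums. The highest Des, 1621 CPM, sits at the highest sum, 12721 CPM.

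In each spiny mouse group animal 2 had the lowest Des and the lowest sum of muscle markers, while the order of animals 1, 3 and 4 could differ between them. At 12 d and 0 Gy Des was 1233, 502, 1408 and 1307 CPM, and at 20 Gy 1346, 232, 1504 and 1621 CPM. Animal 2 was the one animal that fell, and it was also the one whose marker sum fell, from 3496 to 2052 CPM. At 0 Gy animal 1 had the highest sum, 7689 CPM, and the lowest Des of animals 1, 3 and 4. Des is a muscle intermediate filament gene, and how much of it came from muscle cells was not tested.

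Genes outside the set were ranked by how closely they followed the mean of Acta2, Tagln, Cnn1, Myl9 and Tpm2. The measure was the average correlation over the 3 populations among 7696 genes. Levels here were deviations from the mean of each time, so changes with dose and passage are included. The 5 most alike were Myl6, a myosin essential light chain, at 0.853, Cnn2, another calponin, at 0.821, Tgfb1i1 at 0.817, Arpc5, a subunit of the actin-branching Arp2/3 complex, at 0.808, and S100a11 at 0.807. The 5 that ran most against it were Dnal1 at -0.767, Capn7 at -0.759, Klhl7 at -0.758, Myo18a at -0.754 and Ahr at -0.744. Among the members themselves, Acta2 at 0.959 and Myl9 at 0.953 were closest, and both enter that mean. Des at 0.012 was farthest and does not enter it.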

How the data were processed

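RNA sequencing measured mRNA in 84 libraries of primary skin fibroblasts. The deposited values are raw counts of reads per gene, made by the authors with featureCounts 2.0.3, per the file headers, on GRCm39 with Ensembl 108 for mouse and on AcoCah2 for A. cahirinus. Trim Galore and HISAT2 are named in the submitters' processing notes. The recorded command sets no option for strand, multiply mapped reads or overlapping genes. The gene lengths deposited by the authors are other values in base pairs and served for RPKM.

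The 10 genes, the lists around them and the rule for naming genes were chosen with earlier results of these data known. Named genes are the 10 members, the genes past the threshold with the largest changes in the pathway lists, and the 5 most and 5 least alike genes. The tests used edgeR 4.0.16 (R 4.3.3): filterByExpr, TMM, the quasi-likelihood test, and Benjamini-Hochberg adjustment over all genes tested, at 0.05. Interactions used 18109 shared symbols. Every adjusted p in the text is from this test. The procedure was tested on simulated data. Intervals of 3 counts cover counting error only. Replicate numbers are animal codes in the labels, so numbers pair the samples. Deviations from the group mean, correlated across genes, gave 0.36 to 0.94 for libraries of 1 animal and averaged -0.29 to -0.12 for different animals. The main design has no block, and the block is an alternative. Nothing says that libraries of an animal came from separate cultures. Other alternatives were RLE size factors, no filter, DESeq2 1.42.0, all groups in one fit and each animal left out. No protein sequence was used here.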

Additional observations from a re-analysis of the deposited data

Results flagged for a closer look

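Of 210 sets of 4 libraries (10 genes in 21 groups), 41 held a library far from the other 3, its gap above the 95% critical value of Dixon's test. Chance flags about 1 set in 20. In C56BL6 14 of the sets were from 12 d and 3 from 24 h, in wild mice 8 and 3, and in A. cahirinus 11 and 2. The values below are CPM.

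C56BL6 animal 1, whose 12 d libraries held keratins, stood high in Acta2 at 10 Gy (5875) and 20 Gy (5242), in Tagln at 10 Gy (40.03), 20 Gy (30.8) and passaged (31.6), and in Myl9 at 10 Gy (906) and 20 Gy (797). It was also high in Actg2 at 0 Gy (923), 10 Gy (967) and 20 Gy (755), and in Lmod1 at 0 Gy (184), 10 Gy (163) and 20 Gy (169). At 24 h it was high in Actg2 at 20 Gy (1185). Animal 2 was low in Cnn1 at 24 h, 10 Gy (324) and 20 Gy (329), and in Myh11 at 12 d, 20 Gy (47.5).

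The outlying 24 h, 10 Gy library of wild animal 1 was high in Acta2 (15347), Tagln (557) and Tpm2 (7414). Wild animal 3 at 12 d was high in Des at 0 Gy (131), 10 Gy (174), 20 Gy (164) and passaged (392), and in Myh11 at 0 Gy (95.1) and passaged (316). Its passaged library was also high in Myl9 (976) and Tpm1 (2673).

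Spiny mouse animal 2 at 12 d was high at 0 Gy in Cnn1 (166), Myl9 (353), Tpm1 (2327) and Tpm2 (2307), in the passaged library in Cnn1 (319), Myl9 (499) and Lmod1 (17), and at 20 Gy in Lmod1 (14.9). It was low in Des at 10 Gy (386) and passaged (389). At 24 h, 20 Gy it was high in Cnn1 (269) and Actg2 (46.2). Animal 1 was high in Myh11 at 12 d, 0 Gy (55).

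By interaction test, 3 changes differed between A. cahirinus and C56BL6 at 12 d. The log2 difference was -1.75 for Myh11 at 20 Gy, -3.30 for Myh11 on passaging and -0.83 for Tpm2 on passaging.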

How the results depend on the processing

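No result reversed under any alternative. With the animal as a replicate block, the members past the threshold became 1 at each dose in C56BL6 at 24 h, and 4, 4 and 9 at 12 d for 20 Gy, 10 Gy and passaging. In wild mice they became 1 at 24 h, 20 Gy, and 1, 2 and 1 at 12 d for 20 Gy, 10 Gy and 20 Gy against passaged cells. In A. cahirinus they became 9 and 9 at 24 h, and at 12 d 4, 2, 2, 5 and 5 for 20 Gy, 10 Gy, 20 against 10 Gy, passaging, and 20 Gy against passaged cells. The interactions became 8, 6 and 5 for the spiny mouse against C56BL6, 1, 2 and 1 against wild mice, and 1 for wild mice against C56BL6 on passaging. The block ended none of the 22 unblocked calls and changed no other count by more than 1.5 times. No paired analysis was possible between untreated wild and C56BL6 cells because their animals differ.

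DESeq2 gave 2 members for C56BL6 at 12 d, 20 Gy, 1 for A. cahirinus at 24 h, 20 Gy, 2 for its passaging, 2 for wild against C56BL6 at 12 d and 1 for their passaging interaction. All groups in one fit gave 2 for C56BL6 at 12 d, 20 Gy, 2 for spiny mouse passaging and 1 for wild against C56BL6 at 12 d. No filter gave 1 for C56BL6 at 12 d, 10 Gy. RLE factors moved no count by more than 1.5 times and ended the call of Myl9 in C56BL6 at 20 Gy against passaged cells (-0.71, adjusted p = 0.054).

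Leaving out each animal in turn, 7 of the 22 unblocked calls held each time. Counts ran from 1 to 2 for C56BL6 at 20 Gy, 0 to 3 at 10 Gy, 3 to 9 for passaging and 1 to 9 at 20 Gy against passaged cells. In A. cahirinus they ran from 0 to 3, 0 to 5 and 1 to 7 for 20 Gy, passaging and 20 Gy against passaged cells. In wild mice the last 2 ran from 0 to 1, as did wild against C56BL6 at 12 d. The interactions of the spiny mouse with C56BL6 ran from 0 to 1 at 20 Gy and 1 to 3 for passaging, and with wild mice 0 to 1 at 20 Gy, all at 12 d. Within the blocked fit, an alternative added after the data were seen, counts ran from 0 to 3 and 0 to 5 for C56BL6 at 24 h (20 and 10 Gy) and 5 to 10 for passaging. Wild counts ran from 0 to 3 at 24 h, 20 Gy, and 0 to 2, 0 to 1 and 0 to 5 at 12 d for 20 Gy, 10 Gy and 20 Gy against passaged cells. Spiny mouse counts ran from 4 to 9 at 24 h, 20 Gy, and 0 to 4 and 0 to 6 at 12 d for 10 Gy and 20 against 10 Gy. The causes were not tested. The blocked interactions were not run without single animals, and depth was not varied.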
